A study of Mus musculus with 2 samples.

Results

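Alox15, Igfbp3, Sgk1, Tex15, Ppp4r4 and Lmo1 are 6 of the 27998 genes measured in 2 droplet single-cell libraries of mouse embryonic stem cells. They were chosen by name from earlier results of the same libraries, in which they were high in the knockout and linked to the primitive streak, through which epiblast cells of the embryo pass to become mesoderm and endoderm. The values that chose them are their levels in the 2 libraries and their correlations across cells with T, the Brachyury gene of the streak, and with Mesp1, a transcription factor gene of the earliest mesoderm. Those levels and correlations are therefore given as a description.

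The study set PHD2-KO cells against WT cells of the AB2.2 mouse embryonic stem cell line, each taken after 4 days of differentiation, and made 1 library by the 10x Genomics method from each. PHD2, encoded by Egln1, is the oxygen-sensing hydroxylase that marks hypoxia-inducible factor for destruction. Nothing in the sources used here says how the gene was altered, whether the knockout is 1 clone, or what medium or inducers were used. With 1 library per group there are no replicates, so no difference between the groups has a replicate check and no p-value can be given.

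After filtering, the PHD2-KO library held 6927 cells with a median of 20999 UMIs (unique molecular identifiers, which count captured RNA molecules), and the WT library held 8515 cells with a median of 20434. Their kept totals were 157754893 and 201481884 UMIs in PHD2-KO and WT. Egln1 was at 13.6 CPM (UMIs scaled to the library total) in PHD2-KO cells and 18.2 CPM in WT cells, a ratio of 0.751 (95% interval 0.711 to 0.792). Transcript outside an altered part would still be counted, and the knockout label is not tested by this value. Of all barcodes, 22 occurred in both libraries. The labels call both samples embryonic stem cells, and the naive pluripotency markers summed to 704 CPM in PHD2-KO cells and 671 CPM in WT cells. Dppa5a alone gave 595 CPM of that sum in each library, so the sums mostly reflect that gene. The 15 streak markers summed to 1111 CPM in PHD2-KO cells and 188 CPM in WT cells.

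The 6 genes belong to unrelated families. Alox15 encodes a lipoxygenase, which adds oxygen to polyunsaturated fatty acids and is best known from macrophages and eosinophils. Igfbp3 encodes a secreted carrier of insulin-like growth factors. Sgk1 encodes a serum- and glucocorticoid-induced kinase that acts downstream of the mTOR pathway and controls ion channels and FOXO factors. Ppp4r4 encodes a regulatory subunit of protein phosphatase 4. Lmo1 encodes a LIM-only cofactor that has no DNA-binding domain of its own and joins transcription factors into complexes. Tex15 is a germline gene, needed in the mouse for male meiosis and for silencing of transposons. In the streak, T-positive cells leave the epiblast, and those that form the first mesoderm switch on Mesp1.

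On mm10, Alox15 lies on chromosome 11 from 70344152 to 70352031 and Igfbp3 on chromosome 11 from 7206086 to 7213923, both on the minus strand. Sgk1 lies on chromosome 10 from 21882184 to 21999903 and Ppp4r4 on chromosome 12 from 103532283 to 103613831, both on the plus strand. Tex15 lies on chromosome 8 from 33516738 to 33585582 on the plus strand, and Lmo1 on chromosome 7 from 109138572 to 109175207 on the minus strand. All are protein coding, and the one annotated overlap is a gene on the opposite strand of Lmo1, RP23-58K20.2, which had 0 UMIs in both libraries.

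Because T is a T-box factor, the streak depends on Wnt signalling and PHD2 acts through hypoxia-inducible factor, the promoters were searched on both strands for AGGTGTGA (a T-box half-site), ATCAAAG (a TCF and LEF site) and ACGTG or GCGTG (the 2 forms of the hypoxia response core). RefSeq windows on GRCm38.p6, from 250 bases before to 50 after an annotated start, were available for 4 of the 6 genes: 1 each for Igfbp3 and Ppp4r4, 2 for Lmo1 and 6 for Sgk1. Igfbp3, Lmo1 and the upstream Sgk1 window that holds the T-box match are shown, 5′ to 3′ on the gene's strand, with matches in capitals. The Igfbp3 window is chr11:7213874-7214173, the Sgk1 window chr10:21978422-21978721 and the Lmo1 window chr7:109175158-109175457.
Igfbp3: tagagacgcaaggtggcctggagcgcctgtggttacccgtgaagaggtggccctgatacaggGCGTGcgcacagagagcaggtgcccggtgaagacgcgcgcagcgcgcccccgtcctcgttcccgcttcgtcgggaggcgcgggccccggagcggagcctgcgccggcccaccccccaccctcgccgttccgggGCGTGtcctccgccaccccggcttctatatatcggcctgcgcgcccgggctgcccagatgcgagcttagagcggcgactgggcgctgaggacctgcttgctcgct
Sgk1: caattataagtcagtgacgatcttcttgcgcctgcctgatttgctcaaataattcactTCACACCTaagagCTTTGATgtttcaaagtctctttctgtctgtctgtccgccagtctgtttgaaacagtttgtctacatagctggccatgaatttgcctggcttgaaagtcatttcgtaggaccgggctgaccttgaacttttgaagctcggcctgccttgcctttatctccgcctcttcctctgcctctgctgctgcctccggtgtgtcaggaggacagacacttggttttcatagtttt
Lmo1: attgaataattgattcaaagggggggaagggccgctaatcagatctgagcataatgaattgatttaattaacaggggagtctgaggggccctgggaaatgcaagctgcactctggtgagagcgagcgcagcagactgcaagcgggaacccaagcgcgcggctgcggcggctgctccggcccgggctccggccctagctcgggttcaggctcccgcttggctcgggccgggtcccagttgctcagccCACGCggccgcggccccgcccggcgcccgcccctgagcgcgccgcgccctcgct

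The Sgk1 window carries the reverse complement of the T-box half-site, TCACACCT, at position -192 from the start, and that of the TCF and LEF site, CTTTGAT, at -179. The T-box half-site was present in 1.28% of 32851 promoter windows and the TCF and LEF site in 3.73%. None of the other windows of these genes held either. Igfbp3 held GCGTG at -188 and -55, and the Lmo1 window its reverse complement at -4, a motif found in 32.4% of all windows. The same Lmo1 match lies at -62 in the overlapping window of the other start, and 2 of the Sgk1 windows not shown held it at -225. The other form, ACGTG, was found in 19.6% of windows and, among these genes, only in another Sgk1 window, at -246 on one strand and -245 on the other, as parts of 1 palindrome. The Ppp4r4 window held none of the 4 motifs. The counts are per gene and do not tell which Sgk1 or Lmo1 start was used, and a match is a run of letters, not a bound site.

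All 6 genes were higher in the PHD2-KO library. By the rule of at least 1.5-fold, with 1 CPM or more in the higher library, 6 of 6 were called higher, against 16.8% of the 11872 genes measured (1999 higher; 379 lower, 3.19%). Nothing can be read from that count, since the genes were chosen on this contrast. The median log2 ratio was 1.94 over the 6 genes and 0.20 over all genes. Median-of-ratios scaling lowered every log2 ratio by 0.15 and left the 6 calls in place.

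Among the genes of enzymes or enzyme subunits, Alox15 was at 26.3 CPM in PHD2-KO cells (95% interval 25.5 to 27.1) and 4.20 CPM in WT cells (3.92 to 4.49), a ratio of 6.26 (5.81 to 6.75). Sgk1 was at 40.4 CPM in PHD2-KO cells and 7.40 CPM in WT cells, a ratio of 5.45 (5.15 to 5.78). Ppp4r4 had the smallest ratio of the 6, 1.88 (1.79 to 1.96), from 28.5 CPM in PHD2-KO cells and 15.2 CPM in WT cells. The secreted binding protein gene Igfbp3 was at 83.2 CPM in PHD2-KO cells and 30.9 CPM in WT cells, a ratio of 2.69 (2.61 to 2.78). Lmo1 was at 17.9 CPM in PHD2-KO cells and 1.81 CPM in WT cells, a ratio of 9.91 (8.88 to 11.1). Where chromosome 8 gave at least 6% of a cell's UMIs its ratio was 4.85, below those of Alox15 (5.90) and Sgk1 (5.03), and among cells at or below the median chromosome 11 share its log2 ratio was 1.76, against 3.31 over all cells. The germline gene Tex15 was at 21.2 CPM in PHD2-KO cells and 8.52 CPM in WT cells, a ratio of 2.49 (2.34 to 2.64). These intervals, like all below, cover counting error within these libraries and nothing of the spread between cultures. For scale, T was at 318 CPM in PHD2-KO cells and 5.86 CPM in WT cells, and Mesp1 at 221 CPM in PHD2-KO cells and 0.402 CPM in WT cells.

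The share of cells with a UMI followed the levels. After each cell was thinned to 14000 UMIs, Alox15 was found in 26.7% of PHD2-KO cells and 5.56% of WT cells, and Sgk1 in 36.9% and 9.15% of PHD2-KO and WT cells. Igfbp3 was found in 46.3% of PHD2-KO cells and 29.5% of WT cells, and Ppp4r4 in 29.5% of PHD2-KO cells and 18.2% of WT cells. Tex15 was found in 21.9% of PHD2-KO cells and 10.8% of WT cells. Lmo1 was found in 12.3% of PHD2-KO cells and 2.31% of WT cells. The cells behind these shares numbered 6281 in PHD2-KO and 7738 in WT, after 646 PHD2-KO and 777 WT cells shallower than the thinned depth were left out. Unthinned shares ran from 16.2% (Lmo1) to 53.9% (Igfbp3) in PHD2-KO cells and from 4.08% (Lmo1) to 40.6% (Igfbp3) in WT cells.

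Positive cells also held more UMIs in the knockout. A PHD2-KO cell with any Lmo1 UMI held 2.52 on average and at most 31, against 1.05 and at most 3 in WT cells. Igfbp3 averaged 3.51 per positive PHD2-KO cell and at most 31, against 1.80 and at most 20 in WT cells, and Alox15 averaged 1.68 and at most 11 in PHD2-KO cells, against 1.11 and at most 5 in WT cells. Cells with 3 or more UMIs were 24.9% of PHD2-KO and 7.70% of WT cells for Igfbp3, 11.2% and 0.787% for Sgk1 in PHD2-KO and WT, and 4.22% and 0.0117% for Lmo1 in PHD2-KO and WT.

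**Figure D1:**
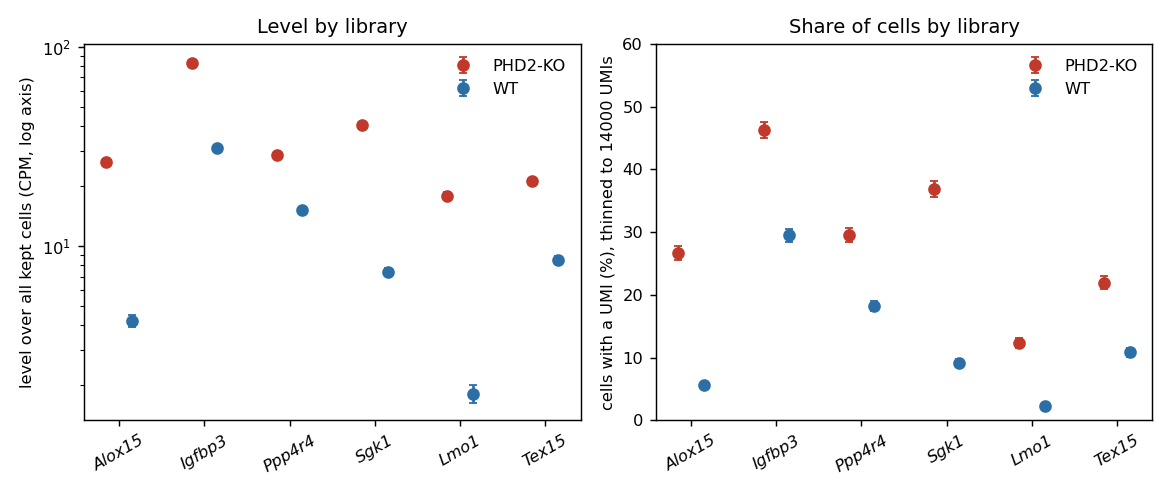
Level of each gene in CPM (left, log axis) and share of cells with a UMI in percent after thinning to 14000 UMIs (right), for PHD2-KO and WT, 1 library each; points are library values and bars 95% counting intervals. Each gene is higher in PHD2-KO on both scales, as for Lmo1 (17.9 CPM in PHD2-KO, 1.81 CPM in WT).

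Across the 6927 PHD2-KO cells the genes fell into different patterns rather than 1 streak pattern. Alox15, Igfbp3 and Ppp4r4 went with T, Sgk1 went with both T and Mesp1, Lmo1 went with Mesp1, and Tex15 went with neither. Pearson's r with T, on log counts scaled per cell, was 0.43 for Igfbp3, 0.36 for Alox15, 0.34 for Ppp4r4 and 0.27 for Sgk1, but 0.04 for Tex15 and -0.12 for Lmo1. The points are cells of 1 library that share its depth and ambient RNA, and they are not replicates. At r of 0.1 or more, 4 of the 6 genes passed, against 3.58% of genes of at least 1 CPM. At -0.1 or less there was 1 of 6, against 1.77%. These counts also rest on values that chose the genes, and nothing is read from them. Among 11711 genes compared, 2 had a higher r with T than Igfbp3, 5 than Alox15, 6 than Ppp4r4 and 27 than Sgk1.

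With Mesp1, r was 0.40 for Lmo1 and 0.17 for Sgk1. It was -0.05 for Tex15, -0.07 for Ppp4r4, -0.11 for Alox15 and -0.15 for Igfbp3. That is 2 of 6 at 0.1 or more, against 3.42% of genes, and 2 of 6 at -0.1 or less, against 3.56%. Only 21 genes had a higher r with Mesp1 than Lmo1. Over all PHD2-KO cells the values of Tex15 go against calling it streak-linked, although its level was higher in the PHD2-KO library. In the 8515 WT cells 0 of the 6 genes reached 0.1 with T, where 0.0623% of genes did, and 0 of 6 lay at -0.1 or less, where 0.0178% did. With Mesp1 the counts were 0 of 6 on both sides, as for 0% of genes. The highest WT value was 0.06, for Ppp4r4 with T, in a library with few T counts. By rank among 11238 genes in WT, 55 had a higher r with T than Ppp4r4, 63 than Igfbp3 and 339 than Alox15. For Sgk1, Tex15 and Lmo1 these numbers were 2623, 2773 and 3046.

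Correlations between the 6 genes themselves were modest. The closest pairs in PHD2-KO cells were Alox15 with Igfbp3 (r = 0.28), Igfbp3 with Ppp4r4 (0.26) and Alox15 with Ppp4r4 (0.20). Sgk1 reached 0.18 with Igfbp3. Lmo1 stood apart from Igfbp3 at -0.16, and Tex15 at -0.12.

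**Figure D2:**
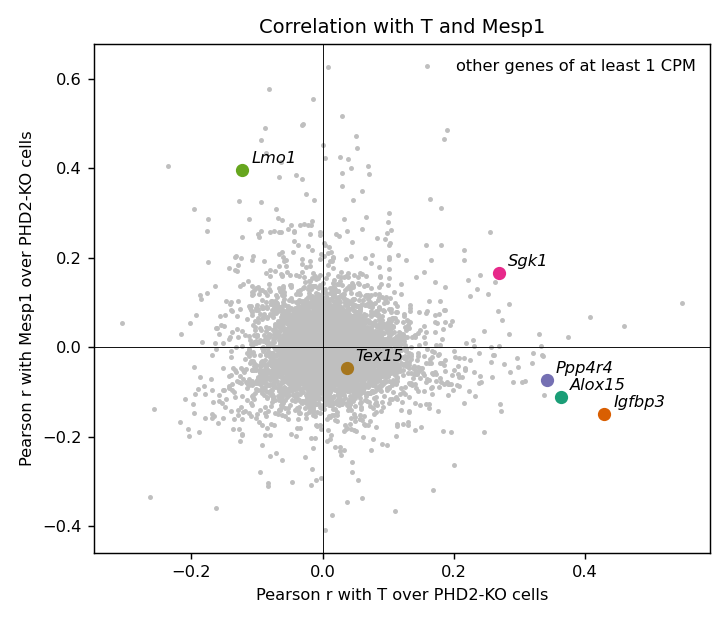
Pearson r with T (horizontal axis) and with Mesp1 (vertical axis) over the 6927 PHD2-KO cells, for the 6 genes (coloured, named) and all other genes of at least 1 CPM (grey). Igfbp3, Alox15 and Ppp4r4 lie at high r with T and negative r with Mesp1 (-0.15, -0.11 and -0.07 in that order). Sgk1 is positive on both axes, Lmo1 lies at r of 0.40 with Mesp1, and Tex15 lies within the grey cloud.

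Sorting PHD2-KO cells by their thinned T count showed how large these relations were. From 1157 cells with 0 T UMIs, through 1642 with 1 to 2, 1504 with 3 to 5 and 1257 with 6 to 10, to 721 with 11 or more, Igfbp3 ran 29.2, 45.5, 80.6, 131 and 174 CPM. Alox15 ran 8.09, 15.7, 28.3, 39.4 and 52.5 CPM in the same order, and Ppp4r4 ran 12.7, 18.1, 30.1, 39.7 and 54.7 CPM. Each was higher at every step, and the top class over the class without T was 5.97-fold for Igfbp3 (5.39 to 6.62), 6.49-fold for Alox15 (5.35 to 7.92) and 4.32-fold for Ppp4r4 (3.67 to 5.10). Sgk1 was also higher at each step, with 25.2, 32.3, 40.4, 55.0 and 77.2 CPM, a ratio of 3.06 (2.71 to 3.45). Tex15 stayed between 20.4 and 23.8 CPM in all classes, and its ratio of 1.07 lay within counting error (0.902 to 1.28). Lmo1 ran the other way, with 25.5, 26.0, 13.9, 11.4 and 6.44 CPM.

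By Mesp1 count the order changed. From 4174 PHD2-KO cells with 0 Mesp1 UMIs, through 1117 with 1 to 2 and 385 with 3 to 10, to 605 with 11 or more, Lmo1 ran 6.47, 14.5, 56.2 and 77.9 CPM, a top-to-bottom ratio of 12.0 (10.6 to 13.7). Sgk1 ran 37.3, 43.7, 62.2 and 65.3 CPM, a ratio of 1.75 (1.59 to 1.92). Igfbp3 ran 91.2, 84.2, 64.4 and 33.9 CPM and Alox15 29.1, 26.7, 16.7 and 12.5 CPM, so both were lowest where Mesp1 was highest. Ppp4r4 had a ratio of 0.660 (0.560 to 0.772) and Tex15 of 0.843 (0.711 to 0.993).

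Cells were also sorted by both genes at once. Among PHD2-KO cells with 3 or more T UMIs, the 504 that also had 3 or more Mesp1 UMIs held Lmo1 at 50.9 CPM, and the 2365 without Mesp1 held it at 4.17 CPM. Sgk1 was at 75.5 CPM in the T and Mesp1 cells and 48.4 CPM in the T cells without Mesp1. The same ratio was 0.530 for Alox15, 0.569 for Igfbp3, 0.729 for Ppp4r4 and 0.892 (0.740 to 1.07) for Tex15. In the 162 PHD2-KO cells with 3 or more Mesp1 UMIs and 0 T UMIs, Lmo1 reached 97.4 CPM. Tex15 was at 10.6 CPM (6.78 to 15.7) in those 162 cells and at 20.1 CPM (17.0 to 23.7) in the T and Mesp1 cells.

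**Figure D3:**
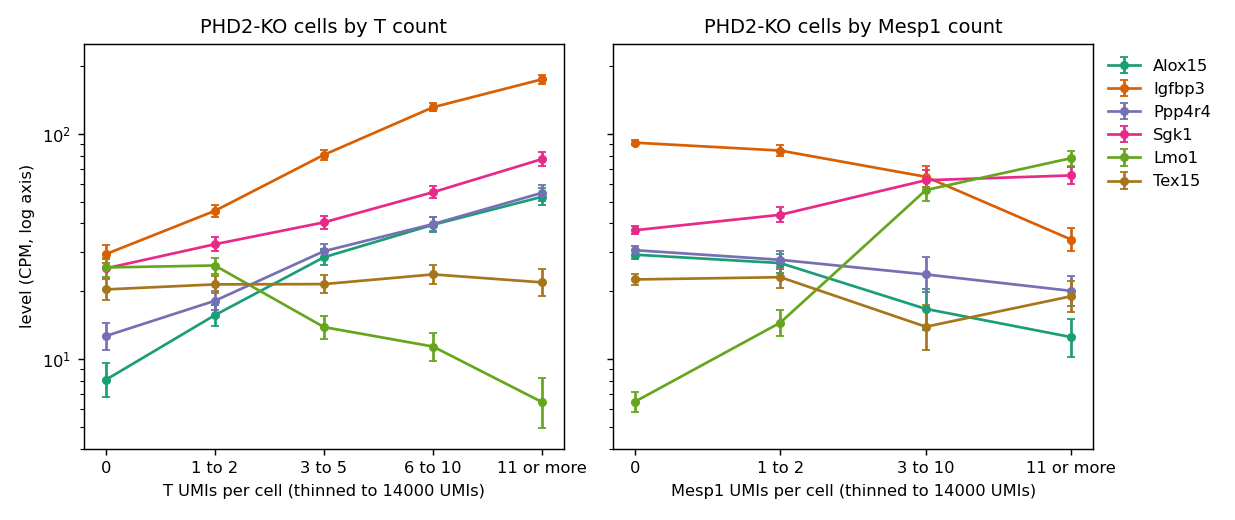
Level in CPM (log axis) of each gene in PHD2-KO cells sorted by T count (left) and by Mesp1 count (right), counts taken after thinning to 14000 UMIs; bars are 95% Poisson intervals. Igfbp3, Alox15, Ppp4r4 and Sgk1 are higher at each T step, Lmo1 is lower at high T and climbs from 6.47 to 77.9 CPM with Mesp1, and Tex15 is level by T.

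Cells without T allow the libraries to be set side by side apart from T itself. Among cells with 0 T UMIs after thinning, 1157 in PHD2-KO and 7238 in WT, Igfbp3 was at 29.2 CPM in PHD2-KO cells and 29.0 CPM in WT cells, a ratio of 1.01 (0.912 to 1.11). Ppp4r4 was at 12.7 CPM in PHD2-KO cells and 14.8 CPM in WT cells, a ratio of 0.857 (0.737 to 0.992). The other 4 genes were still higher in PHD2-KO cells: Alox15 at 8.09 against 4.14 CPM, a ratio of 1.95 (1.59 to 2.38), and Sgk1 at 25.2 against 7.72 CPM, a ratio of 3.27 (2.90 to 3.69). Tex15 was at 20.4 CPM in PHD2-KO cells and 8.61 CPM in WT cells, a ratio of 2.37 (2.08 to 2.69), about its ratio over all cells. Lmo1 was at 25.5 CPM in PHD2-KO cells and 1.71 CPM in WT cells. Where Mesp1 was also 0, the ratios were 5.92 for Lmo1, 2.54 for Tex15, 2.51 for Sgk1 and 2.16 for Alox15. There Igfbp3 had 1.14 (1.02 to 1.27) and Ppp4r4 0.879 (0.736 to 1.04). At 1 to 2 T UMIs the ratios were 1.29 (1.12 to 1.49) for Igfbp3 and 0.970 (0.793 to 1.19) for Ppp4r4. For the other genes they were 16.1 for Lmo1, 3.72 for Sgk1, 3.32 for Alox15 and 1.89 for Tex15. A count of 0 after thinning does not show that a cell lacks T. In WT the T relation could be followed only from the 7238 cells with 0 T UMIs to 485 with 1 to 2. In those 485 cells Igfbp3 was at 35.3 CPM (31.0 to 40.1) and Ppp4r4 at 18.7 CPM (15.6 to 22.3). Alox15 was at 4.71 CPM (3.22 to 6.65) there and Sgk1 at 8.69 CPM (6.61 to 11.2). Tex15 was at 11.3 CPM (8.95 to 14.2) and Lmo1 at 1.62 CPM (0.809 to 2.90). A further 15 WT cells had 3 to 5 T UMIs, too few to follow the relation beyond that.

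Clustering both libraries together, with the 6 genes, T and Mesp1 left out of the clustering genes, gave 15 clusters. Lmo1 was concentrated in a mesoderm-like cluster of 1158 PHD2-KO and 5 WT cells, where it was at 82.4 CPM, 4.60 times its PHD2-KO library level. That cluster carried 8 nascent mesoderm markers such as Mesp1, Cyp26a1 and Snai1, 7 lateral and extraembryonic mesoderm markers such as Gata6, Gata4 and Tbx3, 7 streak markers and 3 haemato-endothelial markers, and its 10 leading genes held 3 lateral and 2 nascent ones. The next highest PHD2-KO cluster, a shallow one led by Etv2 with a median of 10570 UMIs, had 26.0 CPM, and the other 8 clusters of at least 50 PHD2-KO cells had 2.70 to 7.52 CPM. The PHD2-KO cells of the Etv2-led cluster carried 3 nascent mesoderm markers, Mesp1, Cyp26a1 and Snai1, with Mesp1 at 324 CPM. In the mesoderm-like cluster Alox15 was at 8.87 CPM and Igfbp3 at 24.1 CPM, both below their PHD2-KO library levels, and Sgk1 was at 50.5 CPM.

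Alox15, Igfbp3, Ppp4r4 and Sgk1 were spread more evenly, and of these Igfbp3 alone had a cluster at 1.5 times its PHD2-KO library level or more. The primitive streak-like cluster, 1516 PHD2-KO and 16 WT cells with T, Mixl1, Fgf8, Evx1, Sp5 and Fst as markers, held Ppp4r4 at 42.0 CPM and Alox15 at 37.3 CPM, 1.47 and 1.42 times their library levels, with Igfbp3 at 81.4 CPM (0.979 times) and Sgk1 at 42.6 CPM (1.06 times). Tex15 was also above its PHD2-KO library level in the PHD2-KO cells of this cluster, at 29.0 CPM (1.37 times). A cluster of 1975 PHD2-KO and 12 WT cells was led by Sprr2a3, Apln, Hoxb1, Cdx2 and T. It carried 5 streak markers, T, Mixl1, Fgf8, Sp5 and Fst, and the caudal markers Cdx2 and Hoxb1. T was at 422 CPM in its PHD2-KO cells, 1.33 times the library level. It stays unnamed because caudal markers (Hoxb1 and Cdx2) outnumbered streak markers (T) among its leading genes. Of the clusters with at least 50 PHD2-KO cells it held the highest Igfbp3 (130 CPM, 1.56 times the library level), Sgk1 (53.6 CPM, 1.33 times) and Alox15 (37.7 CPM, 1.43 times). Another unnamed cluster of 970 PHD2-KO and 29 WT cells, led by Tac1, Ccl20, Lgals3 and Krt19, also held Igfbp3 at 122 CPM, but Sgk1 at 20.3 CPM. Tex15 was at 47.8 CPM in PHD2-KO cells and 24.0 CPM in WT cells (19.3 to 29.6) of a cluster led by Matn4, Fbp2 and Scn3b, its highest level among PHD2-KO clusters of at least 50 cells. Among WT clusters of that size it was highest, at 33.7 CPM (19.3 to 54.7), in a very shallow cluster with a median of 5264 UMIs, from 16 UMIs.

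Correlations were also taken inside clusters. Over the 7 clusters with at least 200 PHD2-KO cells, r with T ran from 0.26 to 0.43 for Igfbp3, from 0.24 to 0.46 for Alox15, from 0.13 to 0.30 for Ppp4r4 and from 0.02 to 0.33 for Sgk1, whose lowest value was in naive pluripotent-like cells. For Lmo1 with Mesp1, r inside the same clusters ran from -0.01 to 0.10, and it was 0.07 in the mesoderm-like cluster, where over all PHD2-KO cells it was 0.40. For Tex15, r inside these clusters ran from -0.06 to 0.18 with T and from -0.04 to 0.10 with Mesp1. Both Tex15 values were highest in the mesoderm-like cluster.

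**Figure D4:**
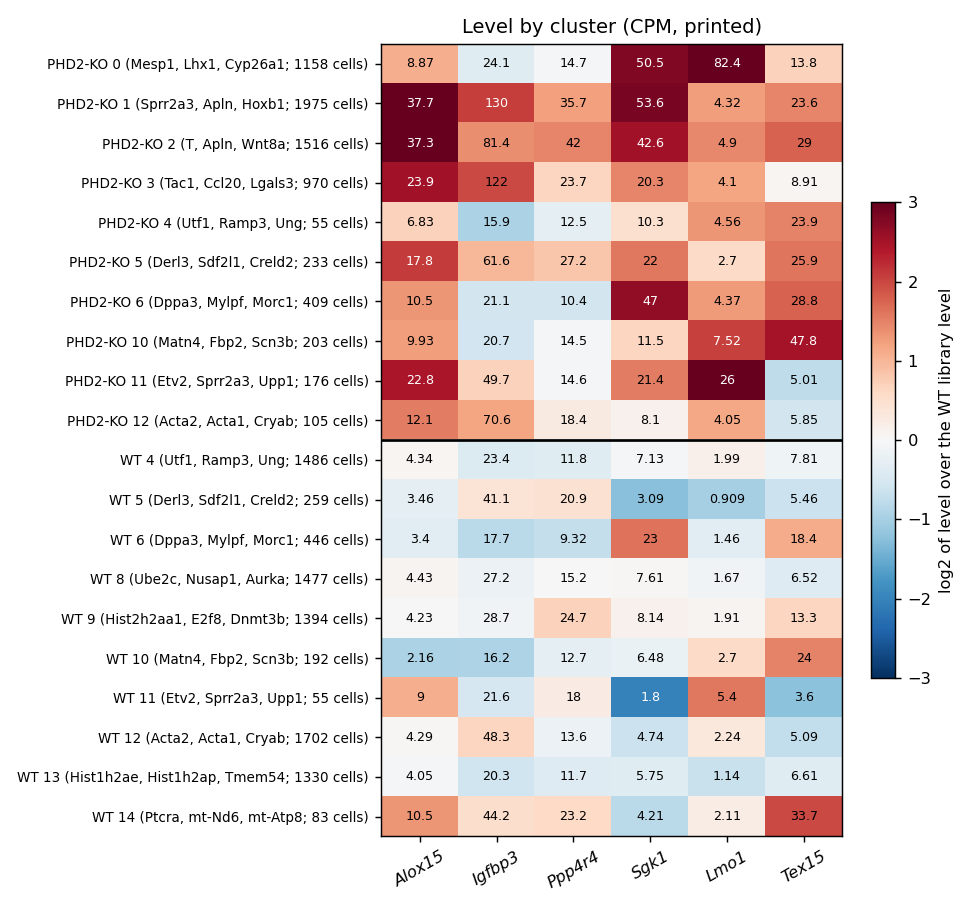
Level of each gene in CPM (printed) in every cluster with at least 50 cells of a library, PHD2-KO above WT, with the 3 leading genes and cell number of each cluster; colour is the log2 of the level over the WT library level. Lmo1 stands out in the Mesp1-led PHD2-KO cluster (82.4 CPM), and Alox15 in the T-led and Sprr2a3-led ones. Among WT clusters Sgk1 is highest in the Dppa3-led one (23.0 CPM), where Tex15 is at 18.4 CPM, 2.16 times its WT library level.

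Sgk1 and Tex15 were also counted in naive pluripotent-like cells, a cluster of 409 PHD2-KO and 446 WT cells with Klf2, Zfp42, Dppa5a, Fgf4 and Dppa3 as markers. Its PHD2-KO cells also carried 4 germ cell markers, Dppa3, Dazl, Tfap2c and Sycp3. Sgk1 was at 47.0 CPM in the PHD2-KO cells and 23.0 CPM in the WT cells of that cluster, and the WT value was 3.11 times the WT library level. Tex15 was at 28.8 CPM in PHD2-KO and 18.4 CPM in WT cells of the cluster. Thinned shares there were 39.3% of PHD2-KO and 19.7% of WT cells for Sgk1, and 29.8% of PHD2-KO and 23.3% of WT cells for Tex15. The shares of the other genes in these cells include any free RNA: Alox15 was found in 11.3% of PHD2-KO and 4.56% of WT cells, Igfbp3 in 16.0% and 16.5%, Ppp4r4 in 13.1% and 12.2%, and Lmo1 in 7.33% and 1.27% of PHD2-KO and WT cells. Their median depth was 24084 UMIs in PHD2-KO and 20560.5 in WT. T itself was found in 47.6% of these PHD2-KO cells and 3.29% of these WT cells, and inside the cluster r with T was 0.46 for Alox15 and 0.29 for Igfbp3 over PHD2-KO cells. How much of each share is free RNA was not tested.

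Within the 3 clusters that held at least 150 cells of each library, the ratios of PHD2-KO over WT were smaller for Igfbp3 and Ppp4r4 than those of Alox15. Those clusters are the naive-like one, the one led by Matn4, and one led by the endoplasmic reticulum chaperone genes Sdf2l1, Hspa5 and Pdia4. Alox15 ratios were 3.09, 4.60 and 5.16 in that order, Igfbp3 1.19, 1.28 and 1.5, and Ppp4r4 1.12, 1.14 and 1.30. Sgk1 ratios were 2.04, 1.78 and 7.11, Tex15 1.56, 1.99 and 4.75, and Lmo1 3.0, 2.79 and 2.97, the Lmo1 values from few UMIs. The T ratio in the same clusters was 36.9, 16.5 and 70.5.

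The genes most like each member were picked by r over PHD2-KO cells among genes of at least 5 CPM. T was the closest gene to Alox15 (0.36), Igfbp3 (0.43) and Ppp4r4 (0.34). The members were chosen partly by their r with T. The place of T among the nearest genes, also for Sgk1, is therefore a description and nothing is read from it. Cyb5a, a cytochrome b5 gene, followed for Igfbp3 (0.42) and Alox15 (0.23), and Psmb8, an immunoproteasome subunit gene, reached 0.39 with Igfbp3. Fst, which encodes the activin antagonist follistatin, was closest to Sgk1 (0.29) and reached 0.25 with Ppp4r4 and 0.22 with Alox15, and Cyb5a reached 0.23 with Ppp4r4. Sgk1 was next nearest T (0.27) and Rspo3 (0.26), a secreted enhancer of Wnt signalling. Lmo1 was closest to Lhx1 (0.47), a LIM homeobox gene of the early mesendoderm, then to the fibronectin gene Fn1 (0.43) and the glypican gene Gpc3 (0.40). Tex15 was closest to the kinase gene Pim2 (0.23), the chromatin remodeller gene Smarca5 (0.21) and the DNA methyltransferase gene Dnmt3b (0.18). In WT cells the largest of these values was 0.13, for Tex15 with Smarca5, but the pairs were picked on PHD2-KO cells, so a lower r in WT follows in part from the choice.

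Relatives and partners of the 6 genes were called about as often as other genes. Of 93 genes in 6 lists written from the known roles of the members, 64 were measured at 1 CPM or more, and 13 were called higher in PHD2-KO cells and 3 lower, where 16.8% and 3.19% of all measured genes were, so these counts say nothing particular to the lists. These lists were made with earlier results of these libraries known.

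In the lipoxygenase list 2 of 8 measured genes were called higher and 1 was called lower; the median log2 ratio was 0.32. Ptgs1, a cyclooxygenase gene, was at 4.22 CPM in PHD2-KO cells and 0.179 CPM in WT cells, a ratio of 23.6 (16.9 to 34.0), and its r with T was 0.18. Alox5ap, the activating protein of another lipoxygenase, had 1.77 CPM in PHD2-KO cells and 0.869 CPM in WT cells. Alox8 was lower in PHD2-KO cells, with a ratio of 0.385 (0.301 to 0.488). Gpx4, which reduces lipid peroxides and is the most abundant of the list, was at 980 CPM in PHD2-KO cells and 1116 CPM in WT cells.

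In the insulin-like growth factor list, whose median was 0.14, 3 of 11 genes were called higher and 1 was called lower. Another carrier gene, Igfbp4, was at 16.4 CPM in PHD2-KO cells and 2.94 CPM in WT cells, a ratio of 5.58 (5.11 to 6.12), but followed Mesp1 (r = 0.21) and not T (-0.05), unlike Igfbp3. The receptor Igf2r and the RNA-binding Igf2bp2 were the other 2 higher genes, with ratios of 1.75 and 1.85. Irs2, an adaptor of insulin and growth factor receptors, was at 12.6 CPM in PHD2-KO cells and 21.1 CPM in WT cells. Igf2bp1, the most abundant in PHD2-KO cells, was at 170 CPM in PHD2-KO cells and 157 CPM in WT cells.

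Of 15 SGK kinases, regulators and substrates 3 were called higher and 0 were called lower (median log2 ratio 0.37). The kinase Sgk3 had a ratio of 1.67 and Ndrg1, an SGK substrate, one of 2.45, while Foxo4 lay just past the limit with 6.69 CPM in PHD2-KO cells and 4.46 CPM in WT cells. The most abundant, the mTORC2 subunit gene Mapkap1, was at 30.8 CPM in PHD2-KO cells and 21.2 CPM in WT cells. None of the 8 subunits and partners of protein phosphatase 4 was called, with a median of 0.21, and Ppp4r2 was at 85.7 CPM in PHD2-KO cells and 71.1 CPM in WT cells.

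Among LMO factors and partners 3 of 9 were called higher and 0 were called lower (median log2 ratio 0.39). Lmo2, the related LIM-only gene of blood formation, was at 6.99 CPM in PHD2-KO cells and 1.29 CPM in WT cells, a ratio of 5.41 (4.72 to 6.22). Its r was 0.03 with T and -0.01 with Mesp1, where Lmo1 had 0.40 with Mesp1. Tcf12, an E-protein partner, had a ratio of 1.64 and Gata2 of 2.55. Ssbp3, the most abundant, was at 61.4 CPM in PHD2-KO cells and 58.5 CPM in WT cells.

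The list of meiosis and germline transposon silencing had a median of -0.13, and 2 of its 13 measured genes were called higher and 1 was called lower. Tdrd5, a Tudor domain gene of the piRNA pathway and the most abundant of the list in PHD2-KO cells, was at 16.1 CPM in PHD2-KO cells and 3.33 CPM in WT cells, a ratio of 4.85 (4.46 to 5.29). Its r with T was 0.27, where that of Tex15 was 0.04. The cohesin gene Rec8 had a ratio of 1.74, and Mael, another piRNA pathway gene, was lower at 1.72 CPM in PHD2-KO cells and 3.18 CPM in WT cells.

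Markers of other cells that could carry these genes were read beside them. The 12 macrophage and granulocyte markers, the cells best known for Alox15, summed to 8.55 CPM in PHD2-KO cells and 6.20 CPM in WT cells. In each library 1 of them, Cd68, reached 1 CPM, and the defining markers Adgre1 and Prg2 had 0 UMIs in both. The 11 fibroblast markers summed to 106 CPM in PHD2-KO cells and 27.8 CPM in WT cells, of which Fn1 gave 93.9 and 23.9 CPM in PHD2-KO and WT. Cdh11 was at 7.13 CPM in PHD2-KO and 0.119 CPM in WT cells, and Col1a2 at 1.88 CPM in PHD2-KO and 0.680 CPM in WT cells. Col1a1, Col3a1 and Col6a1 were also higher in PHD2-KO cells, each below 1 CPM. Thy1, Dcn, Loxl1, Lum and Postn were lower in PHD2-KO cells, where Lum and Postn were at 0. The 11 germ cell markers summed to 64.3 CPM in PHD2-KO cells and 37.6 CPM in WT cells, and the 13 haemato-endothelial markers to 110 CPM in PHD2-KO cells and 67.4 CPM in WT cells. Dnd1 gave 27.6 and 7.24 CPM of the germ cell sums in PHD2-KO and WT. Etv2 gave 50.1 and 11.2 CPM of the haemato-endothelial ones. Dazl, Ddx4, Mael and Egfl7 were lower in PHD2-KO cells, and the other markers of these 2 lists were higher. The part of fibroblast, germ or haemato-endothelial cells in the levels of Igfbp3, Tex15 and Lmo1 was not tested.

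The share of UMIs from chromosome 8, where Tex15 lies, split the cells of both libraries, and the split point of 6% was set after seeing the data. Below it lay 45.1% of PHD2-KO cells and 15.7% of WT cells. Tex15 was at 28.1 CPM in PHD2-KO and 9.19 CPM in WT cells with the higher share, and at 13.3 CPM in PHD2-KO and 4.84 CPM in WT cells with the lower share, so the ratio was 3.06 and 2.74 on the high and low sides. Igfbp3 went the other way, with 62.3 CPM in PHD2-KO and 27.2 CPM in WT cells of higher share, and 107 CPM in PHD2-KO and 50.9 CPM in WT cells of lower share. The Lmo1 ratio depended most on the split, at 4.85 on the high side (9.09 CPM in PHD2-KO, 1.87 CPM in WT) and 19.3 on the low side (27.9 CPM in PHD2-KO, 1.44 CPM in WT). The mesoderm-like cluster had a median chromosome 8 share of 4.95%. For Alox15 and Igfbp3 on chromosome 11, the 9.15% of PHD2-KO cells with more than 13% of UMIs from that chromosome held Alox15 at 36.7 CPM and Igfbp3 at 117 CPM, against 25.1 CPM of Alox15 and 79.3 CPM of Igfbp3 in the other PHD2-KO cells. Without such cells in either library, the ratios were 5.97 for Alox15 and 2.56 for Igfbp3. What sets these shares was not tested.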

How the data were processed

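Single cells of PHD2-KO and WT were profiled in 1 10x Genomics library each. The deposited matrices hold raw UMI counts per gene and cell, made by the authors with Cell Ranger 4.0.0 per the file headers; Cell Ranger, Seurat and mm10 are named in the submitters' processing notes. Cells with fewer than 1000 genes or over 10% mitochondrial UMIs were left out. Scrublet, run through scanpy 1.11.5, called 0 doublets in either library at its own threshold, so the cells with the highest scores were removed at 0.8% per 1000 barcodes, 456 from PHD2-KO and 712 from WT, and doublets that the scores miss remain. UMIs were summed per library, with no pseudocount, and no test was run. CPM have exact Poisson intervals, shares and ratios exact binomial (Clopper-Pearson) ones, at 95%, which cover counting error only. Clusters used 2000 variable genes, 30 principal components, 15 neighbours and Leiden resolution 1, and were named where 3 listed markers reached 10 CPM and exceeded the other cells by 2-fold, in each library giving 20 cells and 5% of the cluster. A cluster with more markers of another class among its 10 leading genes stayed unnamed. The nascent and lateral mesoderm lists were counted together for the name mesoderm-like. Coordinates are from GENCODE on mm10, and promoters from RefSeq on GRCm38.p6. Calculations used numpy 2.4.6, scipy 1.17.1 and pandas 2.3.3, and were checked on simulated counts.

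The 6 genes, the marker and pathway lists and the tests were chosen with earlier results of these data known. Named genes are the 6, T, Mesp1, the 3 genes nearest each by r among genes of at least 5 CPM, the most abundant gene of each list with up to 3 called genes from each end, and cluster markers and leading genes. Predicted, mitochondrial and ribosomal protein genes were left out of the nearest genes. Alternatives covered cell limits, doublets, scaling, shared barcodes, depth, level minimum, pseudocount, correlation measure, clustering and chromosome shares.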

Additional observations from a re-analysis of the deposited data

How the results depend on the processing

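The 6 higher calls, the 4 genes at r of 0.1 or more with T and the 2 with Mesp1 were counted in every alternative run on them. The genes at -0.1 or less did not all stay there. In PHD2-KO cells r with T ran from -0.20 to -0.03 for Lmo1. There r with Mesp1 ran from -0.17 to -0.04 for Alox15, -0.27 to -0.05 for Igfbp3 and -0.13 to 0.003 for Ppp4r4. In WT cells r with T reached 0.15 for Alox15 and stayed below 0.1 for the other genes. Of 572 values for 48 results, 446 stayed within the error or tolerance, 126 moved and 0 changed sign among called values. The log2 ratio ranged from 2.39 to 2.73 for Alox15, 1.07 to 1.47 for Igfbp3, 2.28 to 2.46 for Sgk1, 1.17 to 1.61 for Tex15, 0.63 to 0.94 for Ppp4r4 and 1.76 to 4.27 for Lmo1, whose lowest value came from cells at or below the median chromosome 11 share. Thinning to 7000 UMIs lowered r with T to 0.21 for Alox15, 0.31 for Igfbp3, 0.19 for Sgk1 and 0.19 for Ppp4r4. The 3 pathway genes called lower became 5 with median-of-ratios scaling, 6 in cells at or below the median chromosome 11 share, and 5 in each of the 3 splits chosen after seeing the data: chromosome 8 share of at least 6%, chromosome 8 share below 6%, and chromosome 11 share of at most 13%. With no minimum level 28 pathway genes were higher and 5 lower, and at 5 CPM 8 were higher and 1 lower, since those settings change the number of genes judged. With 15 principal components all 6 genes, in place of 3, had a PHD2-KO cluster at 1.5 times the library level or more, and at resolution 0.5 there were 2; the cause was not tested. No paired analysis was possible because each group is 1 library. At this depth counting error is known for each value, but the spread between cultures or clones is not.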
